A study of Oryza sativa with 12 samples.

Results

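The momilactone biosynthesis cluster of rice, on chromosome 4, was followed as 5 genes named by their identifiers, out of 26611 genes listed in the root expression tables. CPS4 (Os04g0178300), CYP99A3 (Os04g0178400), MAS (Os04g0179200) and KSL4 (Os04g0179700) were listed at both NaCl levels, whereas CYP99A2 (Os04g0180400) was listed at 150 mM NaCl only. The groups were OE1 and TNG67 roots, each kept at 0 or 150 mM NaCl for 24 h from an age of 7 days, with 3 libraries in each of the 4 groups. TNG67 is the wild-type japonica cultivar Tainung 67. OE1 is a single transgenic line in which the transcription factor gene OsERF106MZ is driven by the 35S promoter (35Sp::OsERF106MZ), which is active in most plant cells. All libraries came from pooled seedlings of the TNG67 background, and the labels call the tissue root. OE1 was the only overexpressing line with deposited libraries used here, so an effect of the transgene and an effect of this line cannot be told apart.

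Momilactones are diterpenoid compounds that rice makes against pathogens and releases from its roots, where they inhibit the growth of neighbouring plants. Their synthesis starts from geranylgeranyl diphosphate, a product of the plastid methylerythritol phosphate pathway. CPS4 closes the first rings to give syn-copalyl diphosphate, and KSL4 turns this into syn-pimaradiene. The cytochrome P450 enzymes CYP99A3 and CYP99A2 oxidize the ring skeleton, and MAS, a dehydrogenase, catalyses the step to momilactone A. These genes lie next to one another in the genome as a biosynthetic gene cluster, so the question addressed here was whether these neighbours move together with genotype and with salt.

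Over the listed genes, the reads recovered from the values summed to 16326661 to 22426883 per library (median 17756894). Every value is a normalized count, that is, reads divided by a size factor of the library. OsERF106MZ (Os08g0537900) averaged 9934 ± 531 normalized counts in OE1 and 723 ± 54.6 in TNG67 at 150 mM NaCl, and 9840.4 ± 615 in OE1 and 876 ± 112 in TNG67 at 0 mM NaCl (SD, n = 3 each). Every OE1 library was above every TNG67 library, as their labels require. The 3 root markers (RCc3, Lsi1 and Lsi2) summed to between 20081 and 24723 normalized counts in OE1 and between 10959 and 12917 in TNG67 at 150 mM NaCl. Without NaCl these sums were 63365 to 64998 in OE1 and 52266 to 63522 in TNG67. Of 5 photosynthesis genes fixed as shoot markers, the 4 listed at both levels summed to 171 to 369 in OE1 and 231 to 246 in TNG67 at 150 mM NaCl, and to 1476 to 2463 in OE1 and 3165 to 4848 in TNG67 at 0 mM NaCl. All of these marker genes listed at both levels were lower at 150 mM NaCl in both genotypes. At 150 mM NaCl, RCc3 and 2 of the 4 shoot markers were called higher in OE1. The shoot marker listed at 0 mM NaCl only was called lower in OE1 in a fit of the 6 libraries there. The part of tissue make-up in the results below was not tested. In bulk roots, fewer cells of a type and less RNA per cell cannot be told apart.

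At 150 mM NaCl, all 5 cluster genes had lower values in OE1 than in TNG67 in every library, and the 4 genes other than CYP99A2 passed the test. CPS4 had 2069, 1645 and 4897 normalized counts in OE1 roots, against 24953, 36816 and 21387 in TNG67 roots. The mean was 9.66-fold lower in OE1, and the log2 difference was -3.40 ± 0.50 (SE, n = 3 each; limma adjusted p = 0.00135). For this first enzyme of the branch, the highest OE1 library lay well below the lowest TNG67 library. CYP99A3 had 721, 851 and 2029 normalized counts in OE1 against 12333, 20489 and 10300.5 in TNG67. Its log2 difference was -3.68 ± 0.56 (adjusted p = 0.00167). Like CPS4, this P450 gene was highest in replicate 3 among the OE1 libraries and in replicate 2 among the TNG67 libraries.

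KSL4, the next terpene synthase, had 69.0, 106 and 581 normalized counts in OE1 at 150 mM NaCl, against 2059, 2809 and 1816 in TNG67. The log2 difference was -3.74 ± 0.86 (adjusted p = 0.0124). This call was lost with a pseudocount of 0.1 (adjusted p = 0.088) and in a fit of the 6 libraries at 150 mM NaCl alone (adjusted p = 0.0554). Without OE1 replicate 3, whose KSL4 value was several times that of its mates, the difference was -4.66 (adjusted p = 0.000673), and without OE1 replicate 1 it was -3.13 and still called. MAS had 71.0, 149.6 and 359 normalized counts in OE1 against 1689, 2046 and 1858 in TNG67. Its log2 difference of -3.56 ± 0.50 (adjusted p = 0.000745) became -4.16 without OE1 replicate 3 and -3.00 without OE1 replicate 1. The TNG67 libraries lay close together for MAS, and the spread was on the OE1 side.

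CYP99A2, the other P450 gene of the cluster, had few reads. Its values were 0, 3.01 and 24.9 normalized counts in OE1 at 150 mM NaCl, which were 0 to 31 reads, against 87.8, 118 and 98.3 in TNG67, which were 103 to 121 reads. The count of 0 in OE1 replicate 1 allows for up to 3 reads. In the fit of the 6 libraries at 150 mM NaCl, which covered 25953 genes, its log2 difference was -4.44 ± 1.26 (95% interval -7.74 to -1.13), and it missed the threshold (adjusted p = 0.0673). It passed without OE1 replicate 3 (-5.67, adjusted p = 1.37e-05), without OE1 replicate 1 (-3.32, adjusted p = 0.049) and in edgeR on the reads of these 6 libraries (-3.27, adjusted p = 0.0263), but not in DESeq2 (-3.42, adjusted p = 0.0699). The OE1 and TNG67 values did not overlap for any of the 5 genes. Of the 24922 genes in both tables, 22.5% had all OE1 libraries below all TNG67 libraries at 150 mM NaCl. In all, 4 of the 4 cluster genes in the 12-library fit were called lower in OE1 at 150 mM NaCl, where 3.49% of genes were called lower. A gene is called when its adjusted p is below 0.05 and its log2 difference lies beyond 1. The median over these 4 genes was -3.62, beside a median of -0.005 over all genes.

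**Figure D1:**
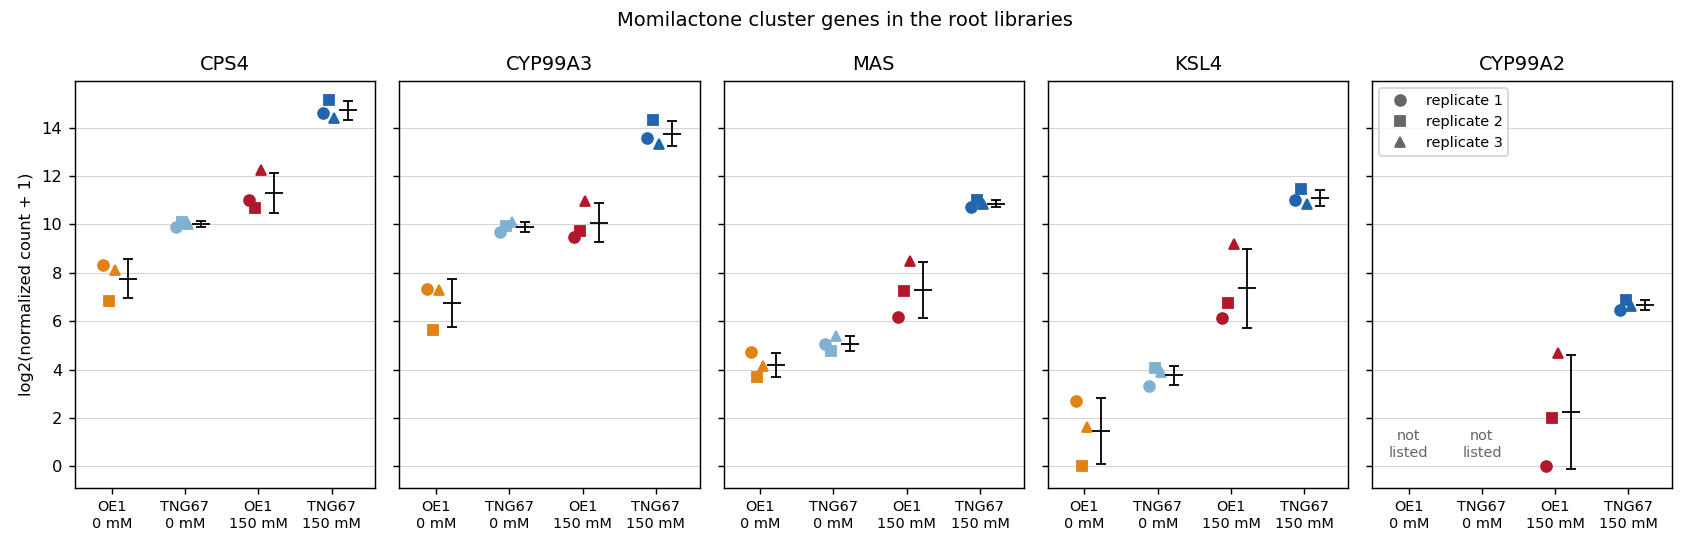
Normalized counts of the 5 cluster genes, as log2 of the value plus 1, in the 12 libraries (points, with the replicate as shape); black bars give the mean and SD of the 3 libraries of a group. OE1 points lie below TNG67 points at either NaCl level for each gene listed there, and CYP99A2 was listed at 150 mM NaCl only.

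At 0 mM NaCl, the direction was the same but only 2 genes, CPS4 and CYP99A3, passed the test. CPS4 had 316, 113 and 277 normalized counts in OE1, against 961, 1114 and 1041 in TNG67, a log2 difference of -2.27 ± 0.50 (adjusted p = 0.0127). CYP99A3 had 159, 48.5 and 158 normalized counts in OE1, against 820, 968 and 1090 in TNG67, a log2 difference of -3.15 ± 0.56 (adjusted p = 0.00466). OE1 replicate 2 was the low library for both genes, and without it the log2 differences were -1.81 for CPS4 and -2.58 for CYP99A3, still called. MAS had 25.4, 12.1 and 16.7 normalized counts in OE1, against 32.5, 26.5 and 40.8 in TNG67, and its log2 difference of -0.88 (95% interval -2.02 to 0.25) did not pass (adjusted p = 0.255). KSL4 had 5.52, 0 and 2.09 normalized counts in OE1, or 0 to 5 reads, against 8.95, 15.9 and 13.9 in TNG67, or 8 to 15 reads. Its log2 difference of -2.32 (95% interval -4.28 to -0.37) did not pass (adjusted p = 0.0894). It did pass in a fit of the 6 libraries at 0 mM NaCl (adjusted p = 0.0186) and in the 12-library fit without OE1 replicate 3 of 150 mM NaCl (adjusted p = 0.0177). Thus 2 of 4 genes were called lower in OE1 at 0 mM NaCl, where 2.89% of all genes were called lower. For all 4, every OE1 library lay below every TNG67 library, as it did for 21.4% of all genes.

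NaCl raised the cluster strongly in both genotypes. In TNG67, KSL4 had 2059, 2809 and 1816 normalized counts at 150 mM NaCl, against 8.95, 15.9 and 13.9 without NaCl, and its log2 difference was the largest of the 4 genes, 7.33 ± 0.86 (adjusted p = 7.72e-05). MAS followed with 5.78 ± 0.50 (adjusted p = 6.18e-06) and a 56.1-fold higher mean. CPS4, the entry enzyme, rose 26.7-fold in its mean, with a log2 difference of 4.70 ± 0.50 (adjusted p = 4.99e-05), and CYP99A3 rose with a log2 difference of 3.85 ± 0.56 (adjusted p = 0.000384). All 4 genes were called higher, where 9.53% of all genes were called higher in TNG67. For all 4, each library at 150 mM NaCl was above each library at 0 mM NaCl, as for 30.8% of all genes.

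In OE1, the rise started from lower values and ended at lower values. KSL4 again had the largest log2 difference, 5.91 ± 0.86 (adjusted p = 0.000535), over a group with 0 to 5 reads at 0 mM NaCl. It was 4.995 without OE1 150 mM NaCl replicate 3 and 6.54 without OE1 0 mM NaCl replicate 1, and it missed the threshold in limma-voom (adjusted p = 0.13). CPS4 had a log2 difference of 3.57 ± 0.50 (adjusted p = 0.000494) and CYP99A3 one of 3.32 ± 0.56 (adjusted p = 0.00149). Both were still called when any 1 library was left out. MAS, the dehydrogenase, had a log2 difference of 3.11 ± 0.50 (adjusted p = 0.000837), which was 2.51 without OE1 150 mM NaCl replicate 3. All 4 genes were called higher in OE1, where 6.66% of all genes were called higher. Each library at 150 mM NaCl was above each library at 0 mM NaCl for all 4 genes, as for 25.3% of all genes.

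Salt-treated OE1 roots overlapped with untreated TNG67 roots in CYP99A3 but not in CPS4, MAS or KSL4. CPS4 had 1645 to 4897 normalized counts in OE1 at 150 mM NaCl and 961 to 1114 in TNG67 at 0 mM NaCl. CYP99A3 had 721 to 2029 in the OE1 libraries and 820 to 1090 in the TNG67 libraries, which overlapped. MAS had 71.0 to 359 in the OE1 libraries and 26.5 to 40.8 in the TNG67 libraries. KSL4 had 69.0 to 581 in the OE1 libraries and 8.95 to 15.9 in the TNG67 libraries. These pairs differ in genotype and in salt, and no test was run on them.

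The test of whether the OE1 effect differed between 150 and 0 mM NaCl, an interaction term, was passed by MAS alone among the 4 genes (interaction -2.68 ± 0.71 on the log2 scale, adjusted p = 0.0418). For MAS, OE1 minus TNG67 was -3.56 with NaCl and -0.88 without it on the log2 scale. This 1 call among the 4 genes stands beside 6.17% of all genes called with a negative interaction. It was lost in edgeR (adjusted p = 0.234) and limma-voom (adjusted p = 0.227), with the replicate number as a block (adjusted p = 0.052), and in 10 of the 12 fits that left out 1 library. The interaction was -1.13 for CPS4 (95% interval -2.74 to 0.47), -0.53 for CYP99A3 (-2.34 to 1.27) and -1.42 for KSL4 (-4.19 to 1.34), and none of these passed the test. The intervals do not exclude a change of the OE1 effect with salt as large as that of MAS for CPS4 and KSL4.

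The proportion of CPS4 to CYP99A3 was also followed in each library. The CPS4 value divided by the CYP99A3 value was 2.87, 1.93 and 2.41 in OE1 and 2.02, 1.80 and 2.08 in TNG67 at 150 mM NaCl. Without NaCl it was 1.99, 2.33 and 1.76 in OE1, against 1.17, 1.15 and 0.956 in TNG67. The 3 untreated TNG67 libraries were thus below the other 9 libraries. This ratio was looked at after the values were seen, no test was run on it, and it does not compare the levels of the genes, since the values are not divided by gene length.

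To ask where along chromosome 4 the change began and ended, all 19 listed identifiers from Os04g0176200 to Os04g0182900 were followed. In the gene table of RefSeq, from another assembly (ASM3414082v1), all 5 cluster genes were found by name, in the order CPS4, CYP99A3, MAS, KSL4, CYP99A2, with 1 more protein-coding gene between CYP99A3 and MAS and 3 long non-coding RNA genes among them. The expression tables hold 1 further identifier between those of CPS4 and CYP99A2, Os04g0179100, which lies just before MAS and is described only as similar to OSIGBa0109M01.2 protein. Os04g0179100 had 39.0, 72.3 and 166 normalized counts in OE1 against 1049, 1141 and 1083 in TNG67 at 150 mM NaCl, and 21.0, 17.2 and 13.6 in OE1 against 34.7, 43.5 and 52.6 in TNG67 at 0 mM NaCl. Its log2 difference between OE1 and TNG67 was -3.79 ± 0.40 at 150 mM NaCl (adjusted p = 4.95e-05) and -1.29 ± 0.40 at 0 mM NaCl (adjusted p = 0.0424), and the call at 0 mM NaCl was lost in edgeR (adjusted p = 0.192), limma-voom (adjusted p = 0.21) and 9 of the fits that left out 1 library. The NaCl difference was 2.13 ± 0.40 in OE1 and 4.63 ± 0.40 in TNG67. Like MAS, it had a negative interaction (-2.50, adjusted p = 0.0187). This was lost in edgeR (adjusted p = 0.125), limma-voom (adjusted p = 0.0632) and 2 of the 12 fits that left out 1 library. Whether reads of related copies, such as CYP99A2 and CYP99A3, were shared out between them in counting could not be checked here.

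The 13 flanking genes, 5 before CPS4 and 8 after CYP99A2, had smaller differences between OE1 and TNG67 than the cluster genes at 150 mM NaCl. Their log2 differences ran from -1.09 to 0.67 there, with a median of -0.17. Of the 13, 1 was called lower and 0 higher, where 3.49% of all genes were called lower and 2.44% higher. At 0 mM NaCl they ran from -1.06 to 0.84 with a median of 0.03, a range that includes the -0.88 of MAS. Again 1 was called lower and 0 higher, where 2.89% of all genes were called lower and 2.37% higher. The gene called at 150 mM NaCl was Os04g0176200, described as similar to N-methyltransferase (-1.09), and the one called at 0 mM NaCl was Os04g0180900, a conserved hypothetical protein (-1.06). Each lay just past the fold threshold and fell short of it in 2 of the fits that left out 1 library. The gene just before CPS4, Os04g0177600, an actin-related protein, had 913, 787 and 809 normalized counts in OE1 against 882, 893 and 745 in TNG67 at 150 mM NaCl. These overlapped, and the gene did not pass the test (adjusted p = 0.981). For NaCl in OE1, 2 flanking genes were called higher and 0 lower, where 6.66% of all genes were called higher and 5.84% lower. In TNG67 also 2 were called higher and 0 lower, where 9.53% were called higher and 9.75% lower. In both genotypes they were Os04g0182200, described as a 2OG-Fe(II) oxygenase, and Os04g0182900. Os04g0182200 rose by 1.08 in OE1 and 1.62 in TNG67 on the log2 scale, and Os04g0182900 by 1.45 in OE1 and 2.21 in TNG67.

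**Figure D2:**
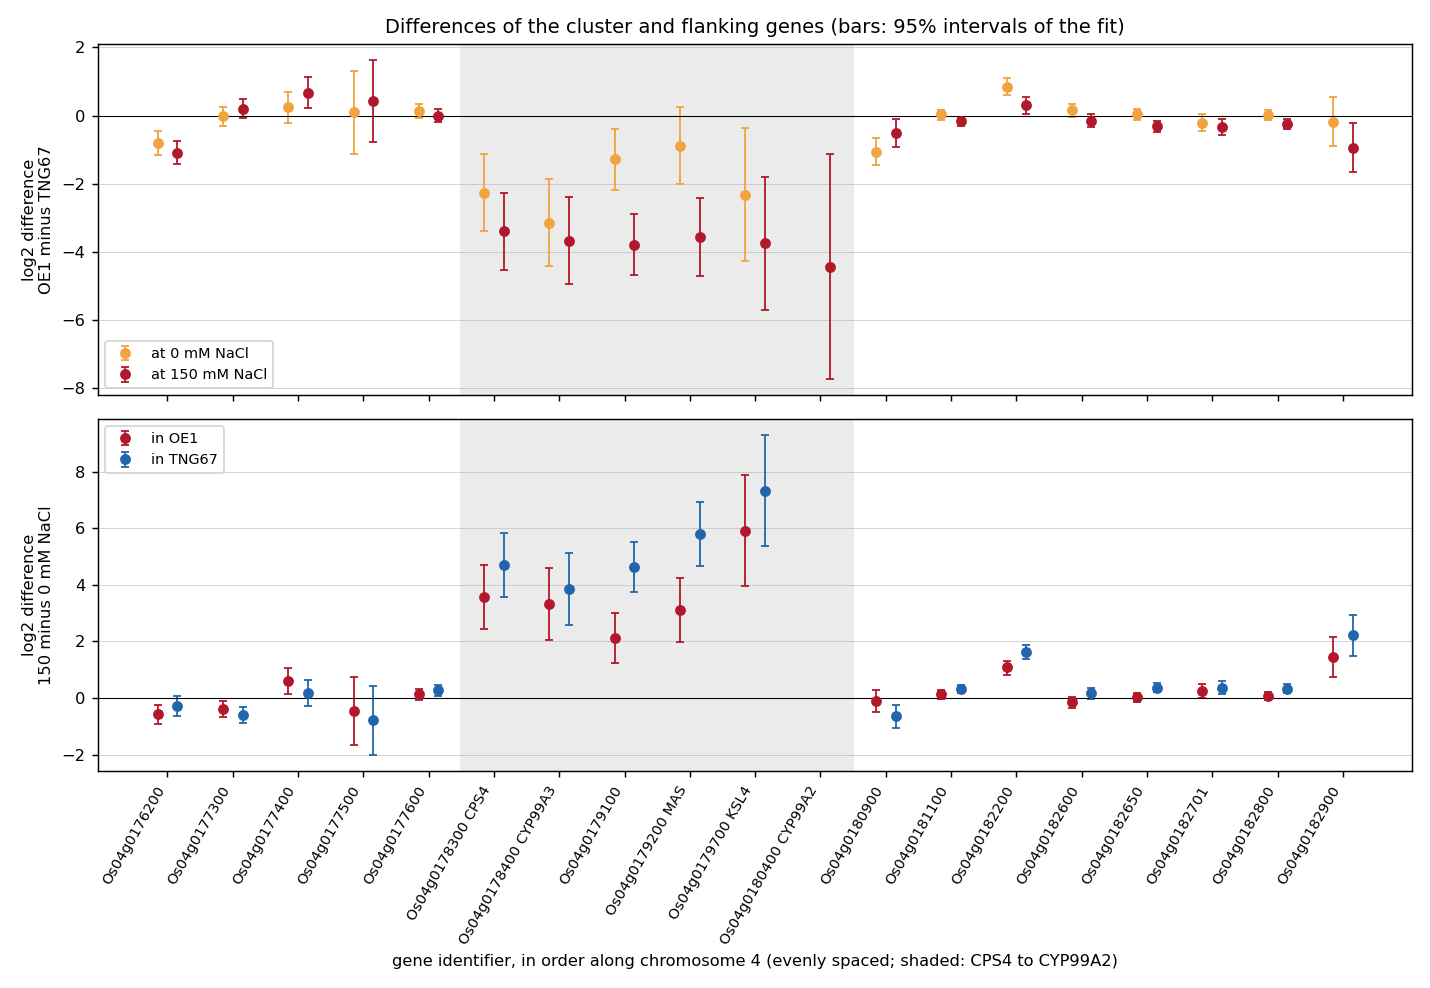
Log2 differences with 95% intervals for the 19 identifiers listed from Os04g0176200 to Os04g0182900, evenly spaced in identifier order; the upper panel gives OE1 minus TNG67 at each NaCl level and the lower panel 150 minus 0 mM NaCl in each genotype. At 150 mM NaCl the 6 identifiers from CPS4 to CYP99A2 (shaded) lie at -3.40 or below and the 13 flanking genes between -1.09 and 0.67, whereas at 0 mM NaCl MAS, at -0.88, lies within the range of the flanking genes and CYP99A2 has no value.

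Beyond the group means, the cluster genes also varied together from library to library. OE1 replicate 3 at 150 mM NaCl lay above the mean of its group in all 5 genes, by 0.92 for CYP99A3, 0.94 for CPS4, 1.19 for MAS, 1.83 for KSL4 and 2.46 for CYP99A2 on the log2 scale. In that library, 0.442% of 22189 genes with a mean of at least 20 lay more than 1 above the mean of the other 2 replicates. That gap is wider than the one to the group mean, which includes the library itself, so this share and the deviations above are on different scales. OE1 replicate 2 at 0 mM NaCl lay below its group mean in all 4 genes listed there, by 0.48 for MAS to 1.44 for KSL4. TNG67 replicate 2 at 150 mM NaCl lay above its group mean in all 5 genes, by 0.14 for MAS to 0.58 for CYP99A3. Within each of these 3 libraries, the cluster genes were thus displaced in the same direction. This was not particular to the cluster. The 5 genes outside this stretch with the most similar profiles, picked by likeness over the same libraries, were displaced likewise in these 3 libraries. Among them, Os07g0190000 had 339, 381 and 1054 normalized counts in OE1 at 150 mM NaCl. It had 44.1, 12.1 and 41.7 in OE1 at 0 mM NaCl, and 6924, 10072 and 6035 in TNG67 at 150 mM NaCl.

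The deviations from the group means had a positive correlation in all 10 pairs of genes. Over the 12 libraries, Pearson's r ran from 0.706 (CPS4 and MAS) to 0.96 (CPS4 and CYP99A3) in 6 pairs, and Spearman's rho from 0.685 to 0.951. In an exact two-sided permutation test within groups (1296 arrangements, adjusted over 10 pairs), 5 of these 6 pairs passed with r and 3 with rho. CPS4 and CYP99A3 had an adjusted p of 0.0463 for r and 0.0257 for rho, CYP99A3 and KSL4 (r = 0.917) had 0.0231 and 0.0154, and CPS4 and KSL4 (r = 0.92) had 0.0463 and 0.0154 in this permutation test. CPS4 and MAS did not pass in the permutation test (adjusted p = 0.138 for r and 0.116 for rho). Without the 2 libraries farthest from the median of the first gene of a pair, r was 0.474 to 0.917. The median r of these 6 pairs was 0.895, and 0.78 without OE1 150 mM NaCl replicate 3. Of the 24921 other genes, 0.00401% to 1.89% had an r to the first gene of the pair at least as high. The KSL4 deviations of OE1 at 0 mM NaCl, from -1.44 to 1.26, rest on 0 to 5 reads.

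The 4 pairs with CYP99A2 rest on the 6 libraries at 150 mM NaCl, where the smallest p of the permutation test is 0.0278. Only MAS and CYP99A2 passed with r (r = 0.999, adjusted p = 0.0463 in the permutation test), and none passed with rho. Before adjustment this p was the smallest possible. The CYP99A2 deviations were -2.23, -0.228 and 2.46 in OE1, from 0 to 31 reads, and at most 0.229 in size in TNG67. This r thus rests mainly on OE1 libraries with few reads, though it was 0.946 without the 2 libraries farthest from the median of MAS. CPS4 and CYP99A2 had an r of 0.749 with all 6 libraries and of -0.112 without the 2 libraries farthest from the median, so this relation rests on those 2 libraries.

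**Figure D3:**
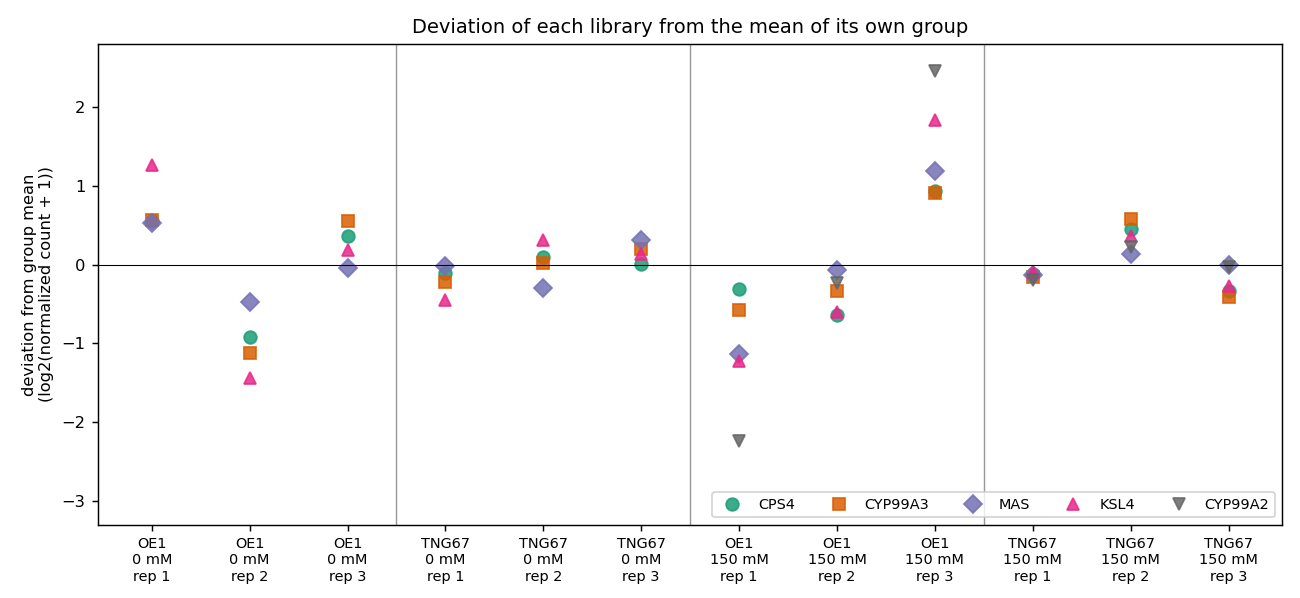
Deviation of each library from the mean of its own group, on the log2 scale of the normalized count plus 1, for the 5 cluster genes (symbols); CYP99A2 has points at 150 mM NaCl only. OE1 replicate 3 at 150 mM NaCl is high in all 5 genes, by 0.92 to 2.46, and OE1 replicate 2 at 0 mM NaCl is low in all 4 genes listed there.

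Most genes that supply the precursor were also lower in OE1 at 150 mM NaCl. Of 9 genes for the methylerythritol phosphate pathway and geranylgeranyl diphosphate synthesis, 8 were in the 12-library fit. At 150 mM NaCl, 7 of these were called lower in OE1 (median log2 difference -1.91), where 3.49% of all genes were called lower. This list and those below were chosen with earlier results of these data known. Os07g0190000, described as a precursor form of deoxyxylulose phosphate synthase, the entry enzyme of that pathway, was the most like the cluster, with 339, 381 and 1054 normalized counts in OE1 against 6924, 10072 and 6035 in TNG67. Its log2 difference was -3.86 ± 0.57 (adjusted p = 0.0015). DXR, the next enzyme, had 995, 868 and 1913 normalized counts in OE1 against 6490, 9876 and 5731 in TNG67 (log2 difference -2.60 ± 0.29, adjusted p = 0.000267). Os07g0580900, a geranylgeranyl diphosphate synthase that makes the substrate of CPS4, had a log2 difference of -2.49 ± 0.22 (adjusted p = 4.22e-05). CMK, MCS and ISPH, later enzymes of the pathway, had log2 differences of -1.96, -1.80 and -1.86. Os01g0887100, another gene of the same pathway, lay just past the threshold at -1.07.

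The exception among the precursor genes was Os05g0408900, a second deoxyxylulose phosphate synthase gene. It had 172, 223 and 163 normalized counts in OE1 against 160, 152 and 127 in TNG67 at 150 mM NaCl, which was no call (0.33, adjusted p = 0.0996). ISPG was listed at 150 mM NaCl only, with at most 1.61 normalized counts in OE1 and 0.853 to 24.4 in TNG67, and it was not called in the 6-library fit (adjusted p = 0.116), though it passed in DESeq2 (adjusted p = 0.026). At 0 mM NaCl, 1 of the 8 genes was called lower in OE1, Os07g0190000 (-3.11 ± 0.57, adjusted p = 0.00579), and the median was -0.44. Of all genes, 2.89% were called lower there. The call on Os07g0190000 at 0 mM NaCl was lost in limma-voom (adjusted p = 0.1). NaCl raised 2 of the 8 genes in OE1 (median 0.82) and 6 in TNG67 (median 2.32), beside 6.66% and 9.53% of all genes. The interaction was called negative in 5 of the 8 genes, beside 6.17% of all genes. The precursor genes other than Os07g0190000 thus had smaller differences at 0 mM NaCl than CPS4 and CYP99A3 had.

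Other genes of diterpenoid defence compounds were also lower in OE1 at 150 mM NaCl. CYP76M8 and CYP701A8, P450 genes that act in momilactone synthesis but lie outside the chromosome 4 cluster, were both called lower in OE1 at 150 mM NaCl. At that level, 3.49% of all genes were called lower. CYP701A8 had 91.9, 172 and 662 normalized counts in OE1 against 3146, 4211 and 3170 in TNG67 (log2 difference -3.98 ± 0.65, adjusted p = 0.00213). CYP76M8 had 153, 216 and 344 in OE1 against 1131, 1272 and 1181 in TNG67 (-2.40 ± 0.23, adjusted p = 8.78e-06). As in the chromosome 4 genes, OE1 replicate 3 was the highest OE1 library for both. Neither was called at 0 mM NaCl.

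The chromosome 2 diterpenoid cluster, which makes phytocassanes and also holds CYP76M8, was the other gene cluster compared. Of its 10 genes, 7 were listed, 4 of them at both NaCl levels. All 4 were called lower in OE1 at 150 mM NaCl (median -3.22), where 3.49% of all genes were called lower. Of the 3 listed at 150 mM NaCl only, 2 were called in the 6-library fit, CYP71Z7 and CYP76M6. In that fit 4.12% of genes were called lower. CPS2, whose product feeds that branch, had 19.0, 134 and 375 normalized counts in OE1 against 1161, 2385 and 1292 in TNG67 and was not called there (adjusted p = 0.102), though it passed in DESeq2 on the same libraries (adjusted p = 0.0148). At 0 mM NaCl, where 2.89% of all genes were called lower, only CYP76M5 was called (-1.13, adjusted p = 0.0211). This call was lost in edgeR, DESeq2 and limma-voom. With NaCl, 3 of the 4 genes were called higher in OE1 and 4 in TNG67, beside 6.66% and 9.53% of all genes. In TNG67, KSL7 rose by 9.08 ± 0.70 on the log2 scale. The terpene synthase genes KSL10 and Os11g0474800, of which Os11g0474800 is described as similar to a stemarene synthase, were called lower in OE1 at 150 mM NaCl (-3.82 ± 0.69 and -2.76 ± 0.25). Of these, Os11g0474800 was also called at 0 mM NaCl (-2.16 ± 0.25). The call on KSL10 at 150 mM NaCl was lost with a pseudocount of 0.1 (adjusted p = 0.0589).

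Genes of the gibberellin branch, which uses the same precursor for a growth hormone, gave no call. KO2, an ent-kaurene oxidase, had 569, 630 and 532 normalized counts in OE1 against 606, 487 and 560 in TNG67 at 150 mM NaCl, with a log2 difference of 0.07 ± 0.10 (adjusted p = 0.65). Of the 3 genes of this branch, 2 were listed, and 0 of these were called in any of the 4 comparisons. The other, Os04g0611800, a terpenoid synthase domain gene, had a log2 difference of -0.50 ± 0.27 at 150 mM NaCl (adjusted p = 0.184). With NaCl, Os04g0611800 had log2 differences of 0.61 (adjusted p = 0.08) in OE1 and 0.91 (adjusted p = 0.00789) in TNG67, short of the fold threshold.

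Of 6 transcription factor genes tied to diterpenoid or defence regulation, 4 were called lower in OE1 at 150 mM NaCl (median -1.68). The same number was called lower at 0 mM NaCl (median -1.15). Of all genes, 3.49% were called lower at 150 mM NaCl and 2.89% at 0 mM NaCl. DPF, a bHLH factor named diterpenoid phytoalexin factor in the tables, had 162, 210 and 265 normalized counts in OE1 against 735, 791 and 723 in TNG67 at 150 mM NaCl. It had 71.7, 72.7 and 97.0 in OE1 against 197, 173 and 208 in TNG67 at 0 mM NaCl. Its log2 differences were -1.84 ± 0.16 and -1.26 ± 0.16, so DPF was lower in OE1 at both levels. WRKY76 had log2 differences of -2.97 ± 0.24 at 150 mM NaCl and -2.22 ± 0.24 at 0 mM NaCl, and WRKY62 of -2.54 ± 0.21 and -1.22 ± 0.21. In work cited by the paper, WRKY76 overexpression lowered resistance to rice blast but improved cold tolerance. The count of 4 thus pools factors that need not act in the same direction. Os05g0322900, a WRKY gene, was at -1.52 ± 0.08 and -1.08 ± 0.08. OsbZIP37 (Os04g0637000), described as a TGA-type bZIP regulator of diterpenoid phytoalexins, was not called, with -0.12 ± 0.08 at 150 mM NaCl and 0.48 ± 0.08 at 0 mM NaCl. Nor was Os05g0343400, another WRKY gene, with -0.28 at 150 mM NaCl and -0.07 at 0 mM NaCl. NaCl raised 4 of the 6 genes in OE1 and 5 in TNG67, beside 6.66% and 9.53% of all genes.

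**Figure D4:**
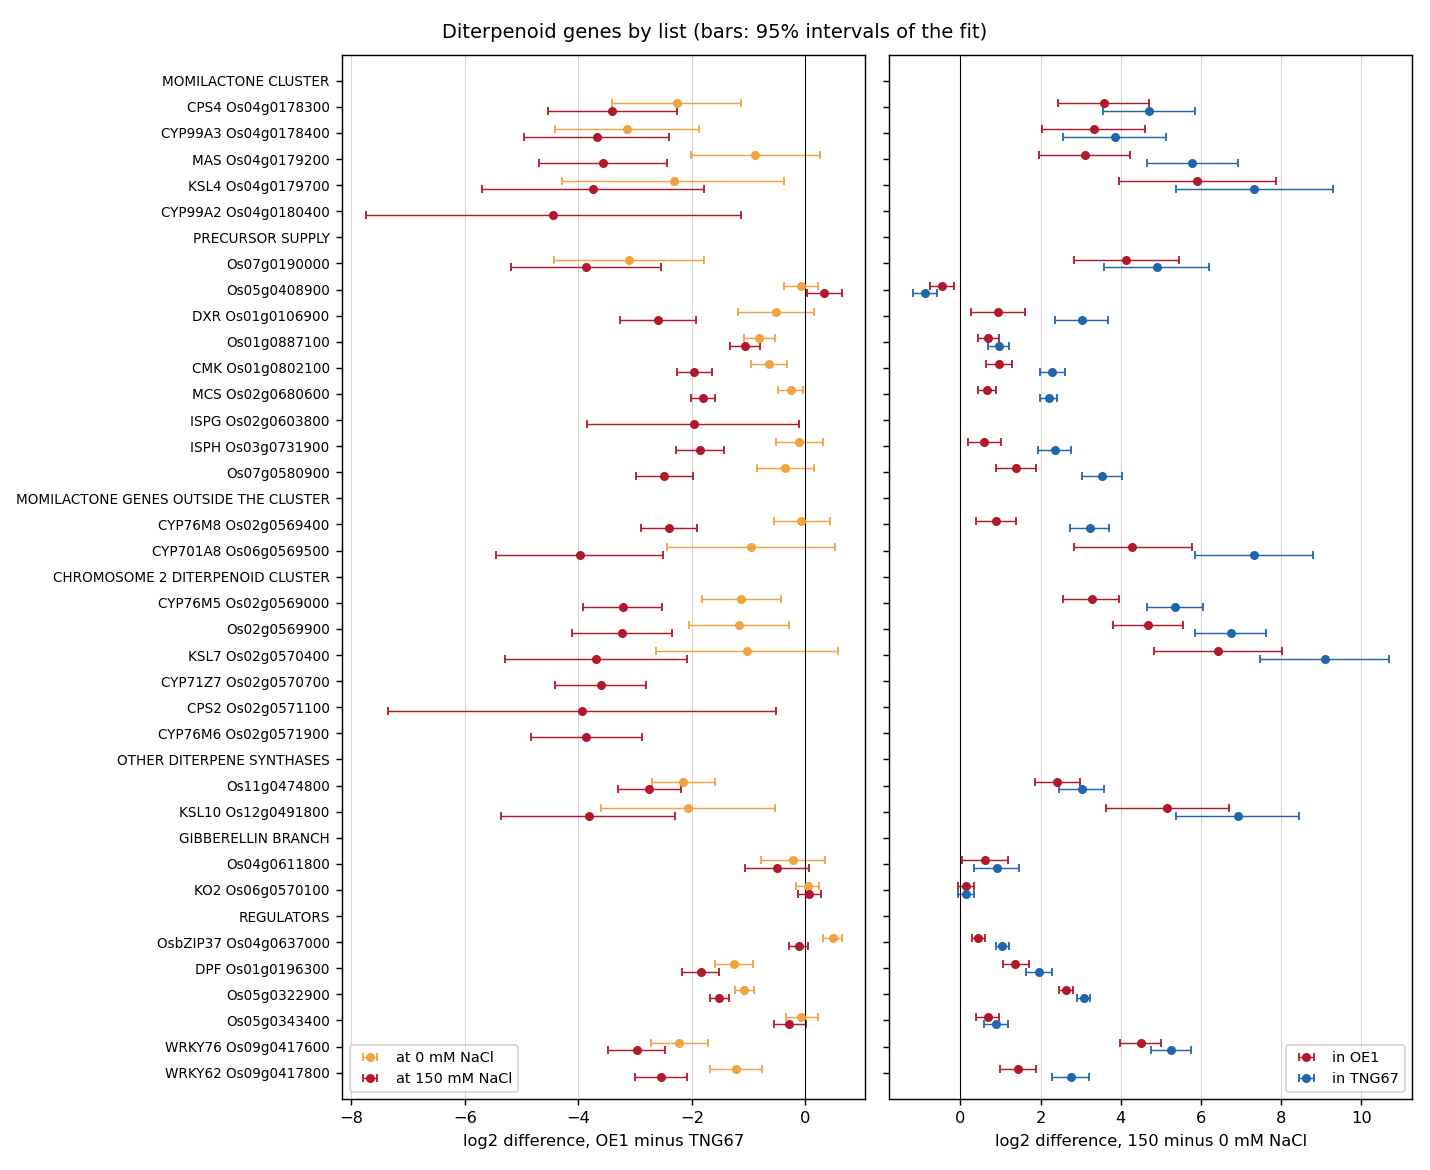
Log2 differences with 95% intervals of the diterpenoid lists, as OE1 minus TNG67 (left) and 150 minus 0 mM NaCl (right); CYP76M8, a gene of 2 lists, is drawn once. At 150 mM NaCl the precursor and chromosome 2 genes have medians of -1.91 and -3.22, with the precursor gene Os05g0408900 to the right at 0.33, and the 2 gibberellin genes lie at 0.07 (KO2) and -0.50 (Os04g0611800).

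The profile most like that of the cluster was sought among 22172 genes outside this stretch with a mean normalized count of at least 20, by Pearson's r over the 12 libraries to the mean standardized profile of the 4 genes. These values are a description, since the libraries fall into 4 groups. The 5 highest were Os07g0416900, an omega-6 fatty acid desaturase (r = 0.9952), Os11g0514500, a leucine-rich repeat glycoprotein (0.9943), Os12g0555200, similar to the probenazole-inducible protein PBZ1 (0.9933), KSL10 (0.9933) and Os07g0190000 (0.9927). Os12g0555200 had 1333, 1670 and 2740 normalized counts in OE1 against 19965, 26436 and 20208 in TNG67 at 150 mM NaCl. It had 188, 103 and 204 in OE1 against 804, 856 and 921 in TNG67 at 0 mM NaCl. The listed genes that were ranked comprised 8 precursor genes, 2 momilactone genes outside the cluster, 4 chromosome 2 genes and 2 other terpene synthase genes. They also comprised 2 gibberellin genes and 6 regulators, and CYP76M8 belongs to both the momilactone and the chromosome 2 genes. Of all these, 6 were among the first 100 of the 22172. Others ranked lower, such as KSL7 at 309, ISPH at 716 and Os05g0408900 at 20687 with an r of -0.838. Of the gibberellin genes, Os04g0611800 was at rank 1523 with an r of 0.891 and KO2 at rank 8664 with an r of 0.288.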

How the data were processed

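RNA was measured in 12 root libraries, 3 in each of 4 groups taken from the sample labels. The labels give roots, the design text of the record names terrestrial parts and the paper belowground parts. Replicates were pooled seedlings, so p-values measure the spread between pools. The authors trimmed reads with Trimmomatic 0.38 and aligned them with HISAT2 2.1.0 to IRGSP-1.0. The counting tool, its use of strand, the normalization and the filter on listed genes are not given in the sources used here.

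The deposited values are a signal, in which the count of reads was scaled by the size factor of its library, with the authors' group mean beside them. All values were whole reads within 0.001 reads. In OE1 0 mM NaCl replicate 2 and OE1 150 mM NaCl replicates 1 and 2, where 1 read is worth about 1, this rests on that test alone. Median-ratio factors recomputed over the 12 libraries lay within 0.0916% of these factors, and those recomputed per NaCl level were 5.82% to 8.17% away, so all libraries were treated as on 1 scale. Replicates had a log2 correlation of at least 0.986.

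limma 3.58.1 (R 4.3.3) was fitted to log2(value + 1) of the 24922 genes listed at both NaCl levels, over 4 group means, with a mean-variance trend and robust moderation. Fold changes are on that scale, which understates those of low genes. The 658 genes listed at 0 mM NaCl only and 1031 at 150 mM NaCl only were left out. Genes listed at a NaCl level were also fitted in the 6 libraries of that level. The Benjamini-Hochberg adjustment ran over all genes of a comparison. Genes were called at adjusted p below 0.05 with a log2 difference beyond 1, and interactions at adjusted p below 0.05 alone. Errors beside log2 differences are SE. The scripts were tested on simulated data.

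Named genes were the cluster genes, the listed identifiers around them, fixed diterpenoid lists and the 5 most similar profiles. The members and lists were chosen with earlier results of these data known. Alternatives were edgeR 4.0.16 and DESeq2 1.42.0 on recovered reads, limma-voom, a pseudocount of 0.1, a mean of at least 20, 6-library fits, a replicate block, no fold threshold, library totals and each library left out. The edgeR and DESeq2 fits of the 6 libraries at 150 mM NaCl were added after the data were seen. Promoter motifs and protein identities were not analysed here.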

Additional observations from a re-analysis of the deposited data

Results flagged for a closer look

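In the genes below, the difference between OE1 and TNG67 changed with NaCl by the interaction test of limma, and the value is the log2 difference at 150 mM NaCl minus that at 0 mM NaCl. In the cluster stretch, MAS had -2.68 and the unnamed gene before it, Os04g0179100, had -2.50. Among the flanking genes, Os04g0182200 had -0.55 and Os04g0182650 had -0.35. Each of these was lost with the replicate block (adjusted p = 0.0509 and 0.0571) and with library totals (adjusted p = 0.0653 and 0.0882). That of Os04g0182200 was also lost in limma-voom (adjusted p = 0.0542). Of the 12 fits that left out 1 library, 8 lost the call on Os04g0182200 and 9 that on Os04g0182650.

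Of the precursor genes, DXR had -2.08, CMK -1.32, MCS -1.54, ISPH -1.75 and Os07g0580900, the geranylgeranyl diphosphate synthase gene, -2.13. Of the P450 genes outside chromosome 4, CYP76M8 had -2.33, CYP76M5 -2.09 and Os02g0569900 -2.06. The values of CYP76M5 and Os02g0569900 did not pass in edgeR (adjusted p = 0.255 and 0.256) or limma-voom (adjusted p = 0.155 and 0.377). That of CYP76M5 did not pass in DESeq2 either (adjusted p = 0.08). Of the 12 fits that left out 1 library, 9 lost the call on Os02g0569900, and all 12 kept that on CYP76M5. Of the regulators, OsbZIP37 had -0.59, Os05g0322900 -0.44 and WRKY62 -1.32.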

How the results depend on the processing

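Over the cluster genes, 402 of 423 values under the alternatives kept their direction and their side of the threshold, 16 lost a call, 5 gained one and 0 reversed. Over the other named genes these counts were 2288 of 2382, 91, 3 and 0. The interaction count of 1 cluster gene, MAS, became 0 in edgeR, limma-voom and with the replicate block, and ranged from 0 to 1 when 1 library was left out, being kept without OE1 150 mM NaCl replicate 1 or 3. The median correlation within groups (0.895) was 0.78 to 0.921 with 1 library left out, lowest without OE1 150 mM NaCl replicate 3. Of the calls on KSL4, that at 150 mM NaCl was lost with a pseudocount of 0.1 and in 6 libraries, that at 0 mM NaCl was gained in 6 libraries and without OE1 150 mM NaCl replicate 3, and that of NaCl in OE1 was lost in limma-voom. The cause was not tested. The replicate numbers did not pair the libraries: deviations of same-numbered libraries correlated at -0.155 to 0.038, and the block changed no other call on the cluster genes. Depth limits KSL4 at 0 mM NaCl and CYP99A2, where 3 reads are the limit that a count of 0 allows for counting error. Without the fold threshold, the genes called among all genes numbered 5493 in place of 1311 for OE1 against TNG67 at 0 mM NaCl, 6419 in place of 1478 at 150 mM NaCl, 9667 in place of 3115 for NaCl in OE1 and 13589 in place of 4804 for NaCl in TNG67. The interaction calls among all genes numbered 2833, against 1765 without TNG67 0 mM NaCl replicate 1 and 1805 without OE1 0 mM NaCl replicate 1.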
